A study of Mus musculus with 24 samples.

Results

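The 32 genes described here encode sensors and a transcription factor of the unfolded protein response and machinery of the endoplasmic reticulum (ER). That machinery folds, inspects, imports and disposes of secretory proteins. The genes were chosen by symbol, through the Ensembl identifiers of the deposited count table, and make up 32 of its 45319 gene rows. By role they comprise 3 sensors and transcription factors, 9 luminal chaperones and co-chaperones, 2 lectin chaperones, 4 protein disulphide isomerases, 7 components of ER-associated degradation and 7 subunits of the translocon and the translocon-associated TRAP complex. The rule itself uses no measured value, and all 32 had enough reads to be tested in every fit.

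RNA was sequenced from mouse Lys-GFP-ER-HoxA9 cells of strain C57Bl/6, a myeloid progenitor line whose differentiation is held back by HoxA9 fused to the estrogen receptor's hormone-binding part for as long as estradiol is present, and which carries green fluorescent protein as a lysozyme reporter. The withdrawal arm held 20 libraries, 2 at each of 10 times (0, 4, 8, 12, 24, 36, 48, 72, 96 and 120 h) after estradiol was removed. The R07 arm held 4 libraries, 1 each after 12, 36, 72 and 120 h of treatment with R07, whose identity the labels do not give beyond this code. All 24 libraries shared the genotype, the strain and a medium with serum, stem cell factor and 0.5 micromolar estradiol for growth. The 0 h cells were the only untreated group and served as control for every later time, so those comparisons share their 2 control libraries. Whether estradiol stayed in the medium during R07 treatment, whether the line is 1 clone, and whether libraries of one time came from separate cultures are not given in the sources used here, so p-values measure the spread between these libraries, which may be technical.

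The ER is where membrane, granule and secreted proteins enter the secretory route. Nascent chains pass through the SEC61 channel, are glycosylated, and fold with the help of the chaperones BiP and GRP94, of lectins that bind sugar side chains, and of isomerases that form disulphide bonds. Chains that fail are sent back across the membrane and degraded. When unfolded protein builds up, the membrane sensors IRE1, ATF6 and PERK switch on a transcriptional programme: IRE1 splices the Xbp1 transcript, ATF6 is cut to release a transcription factor, and PERK slows translation. Granulocyte progenitors make large amounts of granule protein, and XBP1 is known for its part in eosinophil and plasma cell development.

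Gene counts per library ran from 36.7 to 49.6 M. Library pairs of one time had Pearson's r between 0.993 and 0.996 across genes on the log2 scale. Most cell identity genes followed the labels. The progenitor marker Cd34 read 2718 and 2809.9 CPM (counts scaled to a common library total) at 0 h and 44.1 and 44.5 CPM at 120 h. Itgam, the integrin subunit CD11b of mature myeloid cells, stood at 4.45 and 4.82 CPM and then at 2706 and 2173 CPM. By the test described below, 5 of 6 progenitor markers were lower at 120 h and 1 was higher. All 8 granulocyte and monocyte markers were higher, where 39.6% of all genes were higher and 40.3% lower. Of 6 T and NK cell markers, Cd3e, Cd8a and Ncr1 had no read in any library, while Cd3d, Cd4 and Nkg7 were detected; the 6 summed to 4.83 and 5.19 CPM at 0 h, 1.88 and 1.31 at 120 h and 4.07 to 17.7 CPM in R07. The libraries of one time are called A and B after the letters of the deposited columns. For 13 members the gene span overlaps another annotated gene, for 11 of them one on the opposite strand, and the strand setting of the counting is not given in the sources used here. Such bulk libraries cannot tell apart fewer cells of a type and less RNA per cell.

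Promoters of several members carry the ER stress response element, the sequence to which ATF6 and XBP1 are known to bind together with the CCAAT factor NF-Y. The rule that chose the members read no sequence. The members were listed by name as genes of this response, in which the element is known to act. A high share of matches among them is thus not independent of the list and tests nothing. RefSeq windows on GRCm38.p6, from 250 bases before to 50 bases after the annotated start, were found for 26 of the 32 members. The element ERSE, which reads CCAAT, then 9 free bases, then CCACG, was searched on both strands like the others and occurred in 9 of those 26 (34.6%) and in 39 of 32851 windows of all genes (0.119%). The element ERSE-II, which reads ATTGG, 1 free base and CCACG, occurred in 2 of 26 (7.69%) and in 12 of all windows (0.0365%). TGACGTGG, the core of the element UPRE, occurred in none of the 26 and in 0.676% of all windows. All 3 patterns share the letters CCACG or their reverse complement, so their matches can overlap. The matches follow, each read 5′ to 3′ in the orientation of the motif, with the fixed letters in capitals and the free spacer in lower case.
Calr ERSE: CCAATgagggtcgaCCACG
Canx ERSE: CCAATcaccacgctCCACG
Creld2 ERSE: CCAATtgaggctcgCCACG
Derl3 ERSE: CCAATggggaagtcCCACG
Dnajb11 ERSE-II: ATTGGcCCACG
Dnajc3 ERSE: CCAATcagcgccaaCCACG
Herpud1 ERSE-II: ATTGGgCCACG
Hsp90b1 ERSE at 107 bases: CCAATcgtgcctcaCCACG
Hsp90b1 ERSE at 212 bases: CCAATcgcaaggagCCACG
Hspa5 ERSE: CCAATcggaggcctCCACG
Pdia6 ERSE: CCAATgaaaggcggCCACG
Syvn1 ERSE: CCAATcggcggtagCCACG
Positions of these matches on GRCm38.p6, with the strand of the gene and the distance from its annotated start, were as follows. ERSE matches lay for Calr at chr8:84847075-84847093 (minus strand, 162 bases before), Canx at chr11:50325800-50325818 (minus strand, 145 bases before), Creld2 at chr15:88819520-88819538 (plus strand, 126 bases before), Derl3 at chr10:75893242-75893260 (plus strand, 156 bases before). Those of the next members lay for Dnajc3 at chr14:118937827-118937845 (plus strand, 105 bases before), Hsp90b1 at chr10:86705533-86705551 (minus strand, 107 bases before), Hsp90b1 at chr10:86705638-86705656 (minus strand, 212 bases before). The last lay for Hspa5 at chr2:34772025-34772043 (plus strand, 65 bases before), Pdia6 at chr12:17266491-17266509 (plus strand, 98 bases before), Syvn1 at chr19:6046532-6046550 (plus strand, 44 bases before). ERSE-II matches lay for Dnajb11 at chr16:22857852-22857862 (plus strand) and Herpud1 at chr8:94386377-94386387 (plus strand, 52 bases before). Hsp90b1, which encodes GRP94, was the only member with a pair of ERSE matches. The match of Dnajb11 began 7 bases after the annotated start.

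The 250 bases before the RefSeq start are printed for 3 members that later moved in different ways, with the matched letters and their spacer in capitals. They are read on the strand of the gene, so a match on the other strand appears as its reverse complement. The 3 are Calr, which rose and then fell, Herpud1, which was higher late, and Creld2, which was lower late.
Calr upstream: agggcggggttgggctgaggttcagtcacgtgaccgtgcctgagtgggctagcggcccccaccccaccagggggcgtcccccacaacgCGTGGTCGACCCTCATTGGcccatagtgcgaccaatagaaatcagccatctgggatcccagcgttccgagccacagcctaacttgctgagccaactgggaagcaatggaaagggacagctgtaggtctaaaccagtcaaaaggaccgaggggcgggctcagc
Herpud1 upstream: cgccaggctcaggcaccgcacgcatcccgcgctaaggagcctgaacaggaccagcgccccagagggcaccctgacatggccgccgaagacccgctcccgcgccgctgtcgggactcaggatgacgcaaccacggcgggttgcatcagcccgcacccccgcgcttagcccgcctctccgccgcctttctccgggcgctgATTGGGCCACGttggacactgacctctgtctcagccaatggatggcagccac
Creld2 upstream: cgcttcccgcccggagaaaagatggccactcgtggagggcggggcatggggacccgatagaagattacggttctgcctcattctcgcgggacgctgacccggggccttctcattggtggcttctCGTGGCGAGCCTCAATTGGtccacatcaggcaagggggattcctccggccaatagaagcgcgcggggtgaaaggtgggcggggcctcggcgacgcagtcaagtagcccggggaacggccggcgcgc
These stretches lie on GRCm38.p6 for Calr at chr8:84846932-84847181 on the minus strand, Herpud1 at chr8:94386179-94386428 on the plus strand and Creld2 at chr15:88819396-88819645 on the plus strand. A match says that the letters are there, not that a factor binds.

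At 0 h the levels of the members differed widely. Per kilobase of exon, Calr led at 1012 CPM per kb, followed by P4hb at 351, Hsp90b1 at 289, Hspa5 at 271, Canx at 241 and Pdia3 at 231 CPM per kb. The sensors and transcription factors were far lower, at 18.1 (Ern1), 17.2 (Xbp1) and 7.36 (Atf6) CPM per kb. Derl3 was lowest, at 0.139 CPM per kb. Calr stood alone at the top, and general chaperones and isomerases followed it. Together the members took 12854 ± 579 CPM at 0 h (SD, n = 2), and 1.37 ± 0.053% of the raw gene counts.

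Withdrawal changed every member at some time: all 32 passed the joint test of the 9 later times, as did 91.1% of the 14615 genes tested. "Called" here means a Benjamini-Hochberg adjusted p under 0.05 in edgeR's quasi-likelihood test over all genes tested. The course had 3 stages. Few members were called in the first 12 h, and most were higher at 24 and 36 h. By 120 h Xbp1, the sensor Atf6 and most degradation genes were high. The sensor Ern1 and most chaperones, isomerases and translocon subunits were then low. The highest mean fell at 24 h for 14 members, at 36 h for 8, at 48 h for P4hb alone, at 96 h for 5 and at 120 h for 4.

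**Figure D1:**
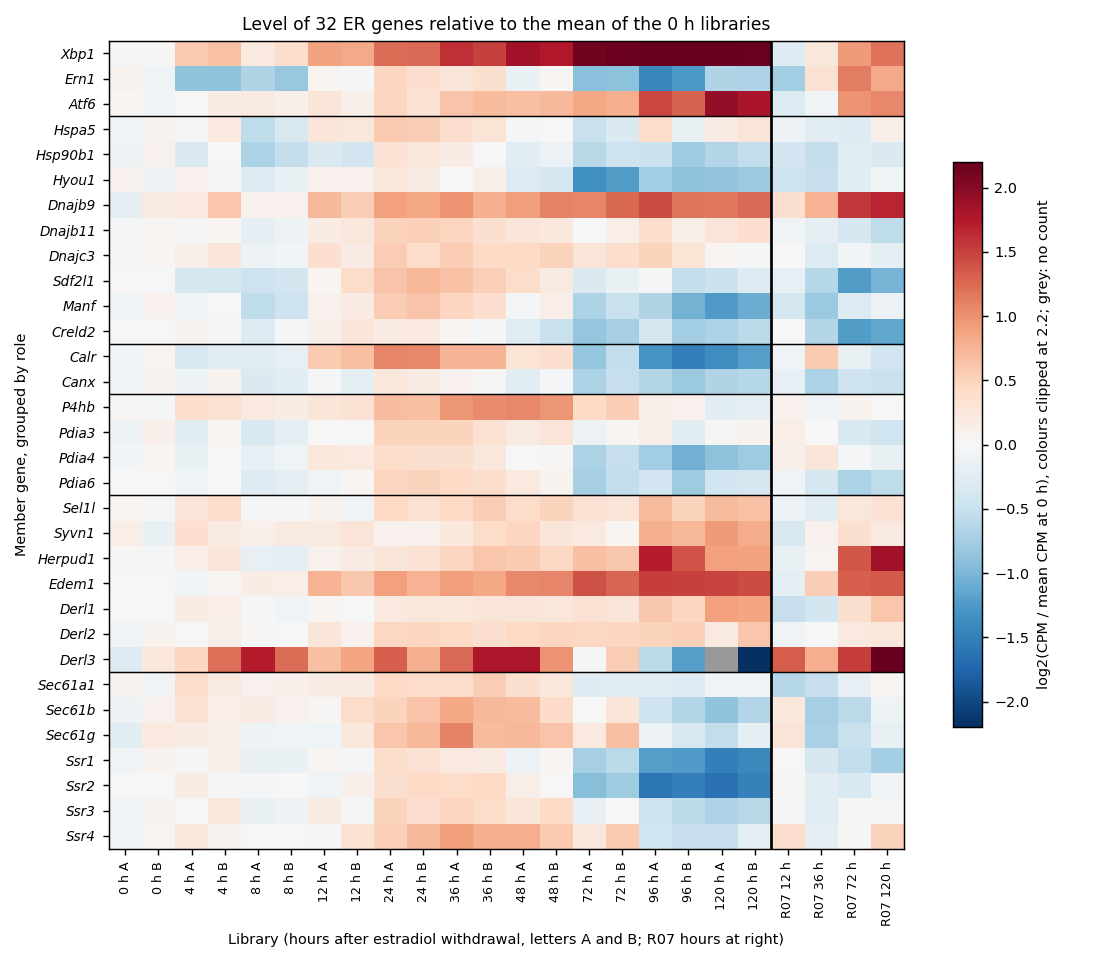
Levels of the 32 members in all 24 libraries (columns, hours) as log2 of CPM over the mean CPM at 0 h (colour, clipped at the ends of the scale, grey for no read), with members in rows grouped by role. Most rows are red at 24 and 36 h; at 120 h Xbp1, Atf6 and 6 of the 7 degradation genes are red and the Ssr rows blue.

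At 4 h, 5 of 32 members (15.6%) were called, against 11.7% of all genes (7.22% higher, 4.53% lower): Xbp1, P4hb, Sel1l and Sec61a1 were higher and Ern1 lower. At 8 h, 7 of 32 (21.9%) were called, the same share as among all genes (21.9%, of which 12.9% higher and 8.99% lower). Hspa5, Hsp90b1, Sdf2l1, Manf and Ern1 were lower and Xbp1 and Derl3 higher. At 12 h, 6 of 32 were called, against 16.0% of all genes (9.20% higher, 6.81% lower), with Xbp1, Dnajb9, Calr, P4hb and Edem1 higher and Hsp90b1 lower. These early counts lie near the background. Leaving out the 0 h library B left 3 calls at 4 h and 2 at 8 h, and leaving out the 8 h library A left 3 at 8 h.

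At 24 h, 26 of 32 members were higher and none lower, whereas 13.5% of all genes were higher and 14.4% lower (27.9% in all). The median member change was 0.47 on the log2 scale, against 0.00 over all genes. In 31 of 32 members both 24 h libraries lay above both 0 h libraries and in none below; among all 14615 genes tested 4827 (33.0%) lay above and 4531 below. All 3 sensors and transcription factors, all 4 isomerases and all 7 translocon and TRAP subunits rose. So did 6 of 9 luminal chaperones, 5 of 7 degradation genes and Calr of the 2 lectins. Hsp90b1, Hyou1, Creld2, Canx, Syvn1 and Derl3 were not called. Leaving out the 0 h library A reduced the count to 16, all of them higher.

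The pattern held at 36 h, when 26 members were higher and none lower (40.9% of all genes called, 20.6% higher and 20.3% lower), and had loosened at 48 h, when 19 were higher and 2, Hyou1 and Creld2, were lower (52.6% of all genes called, 25.8% higher and 26.8% lower). The summed level peaked at 19631 ± 305 CPM (1.96% of raw gene counts) at 24 h, was 15587 ± 225 CPM at 48 h and ended at 10167 ± 298 CPM (0.784%) at 120 h (SD, n = 2 throughout). Calr alone held 2792 and 3037 CPM of it at 0 h, 6114 and 6039 at 24 h and 1132 and 1255 at 120 h. The sum thus leans on this gene, and 10 members were called higher at 120 h.

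At 72 h the calls had split into 12 higher and 13 lower (69.6% of all genes called, 34.9% higher and 34.7% lower), at 96 h into 11 and 15 (77.4%, 38.7% higher and 38.6% lower), and at 120 h into 10 and 18. At 120 h, 79.9% of all genes were called, 39.6% higher and 40.3% lower, so that the 28 calls (87.5%) lie close to the background. The calls tilted towards lower values, with a median member change of -0.38 on the log2 scale, against -0.06 over all genes. The calls by role were uneven. Counts at 120 h were 6 higher and 1 lower among the degradation genes and 0 and 6 among the translocon and TRAP subunits. They were 0 and 3 among the isomerases, 0 and 2 among the lectins and 2 and 5 among the luminal chaperones. Among the sensors and transcription factors they were 2 and 1. Between 48 and 120 h, 20 members fell and 7 rose, where 38.0% of all genes fell and 36.7% rose (74.8% called).

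**Figure D2:**
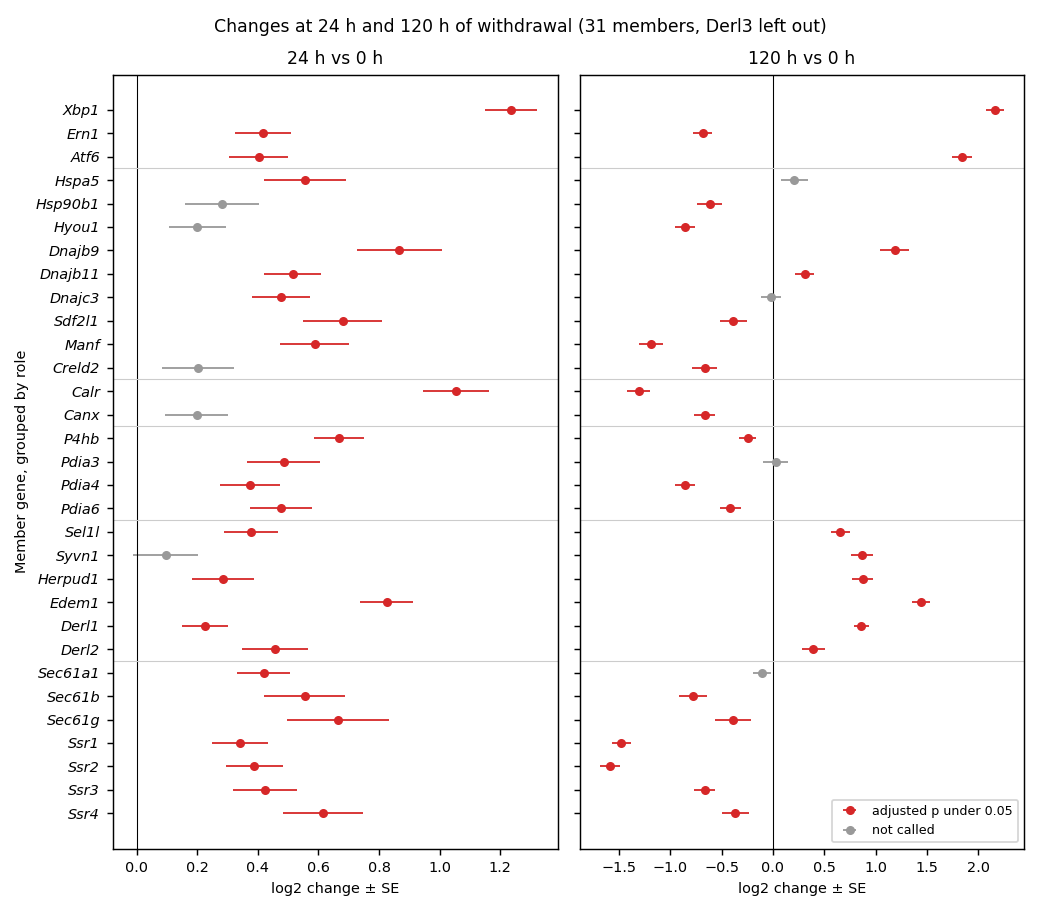
Fitted log2 change (horizontal axis, ± SE, n = 2 libraries against 2) of 31 members (vertical axis) at 24 h and at 120 h against 0 h; red points were called and grey ones were not, and Derl3 is left out for its few reads. All points lie right of 0 at 24 h; at 120 h they spread from -1.59 for Ssr2 to 2.16 for Xbp1.

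Among the sensors and transcription factors, Xbp1 (chr11:5520659-5525893, plus strand on mm10) rose almost without a break. It encodes the transcription factor that IRE1 activates by splicing, and these gene-level counts do not separate the spliced from the unspliced transcript. The Xbp1 libraries read 55.0 and 56.8 CPM at 0 h, 83.0 and 87.8 at 4 h, 65.1 and 73.0 at 8 h, 104 and 99.8 at 12 h, 131 and 133 at 24 h, 171 and 158 at 36 h, 202 and 190 at 48 h, 245 and 248 at 72 h, 289 and 263 at 96 h and 256 and 252 at 120 h. Each time from 4 h on lay above both 0 h libraries, and the only step down before 96 h was from 4 to 8 h. The log2 change against 0 h was 0.61 ± 0.086 at 4 h (adjusted p = 4.59e-05), 1.24 ± 0.086 at 24 h and 2.16 ± 0.089 at 120 h (adjusted p = 6.57e-15).

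Atf6 (chr1:170704674-170867771, minus strand), the sensor that is itself cut into a transcription factor, rose later than Xbp1. Atf6 stood at 70.3 and 65.5 CPM at 0 h, 67.2 and 75.7 at 4 h, 77.7 and 73.2 at 8 h, 81.2 and 73.2 at 12 h, 94.5 and 85.6 at 24 h, 104 and 110 at 36 h, 107 and 111 at 48 h, 123 and 119 at 72 h, 189 and 166 at 96 h and 258 and 235 at 120 h. The change was not called before 24 h (log2 0.40 ± 0.096), and most of it came after 72 h, to 1.84 ± 0.099 at 120 h (adjusted p = 4.83e-13).

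Ern1 (chr11:106394650-106487852, minus strand), which encodes IRE1, moved back and forth. Levels of Ern1 were 156 and 141 CPM at 0 h, 80.1 and 79.8 at 4 h, 93.2 and 83.5 at 8 h, 154 and 146 at 12 h, 206 and 191 at 24 h, 178 and 190 at 36 h, 134 and 152 at 48 h, 78.8 and 78.9 at 72 h, 55.1 and 62.0 at 96 h and 94.0 and 93.0 at 120 h. The transcript fell by 0.89 on the log2 scale at 4 h (SE 0.093, adjusted p = 1.52e-06), was above 0 h at 24 h (0.42 ± 0.092), and was at its lowest at 96 h (-1.36 ± 0.095, adjusted p = 4.58e-11). Its level at 120 h, -0.68 ± 0.093 against 0 h, was lower than at 0 h while Xbp1 and Atf6 were higher.

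**Figure D3:**
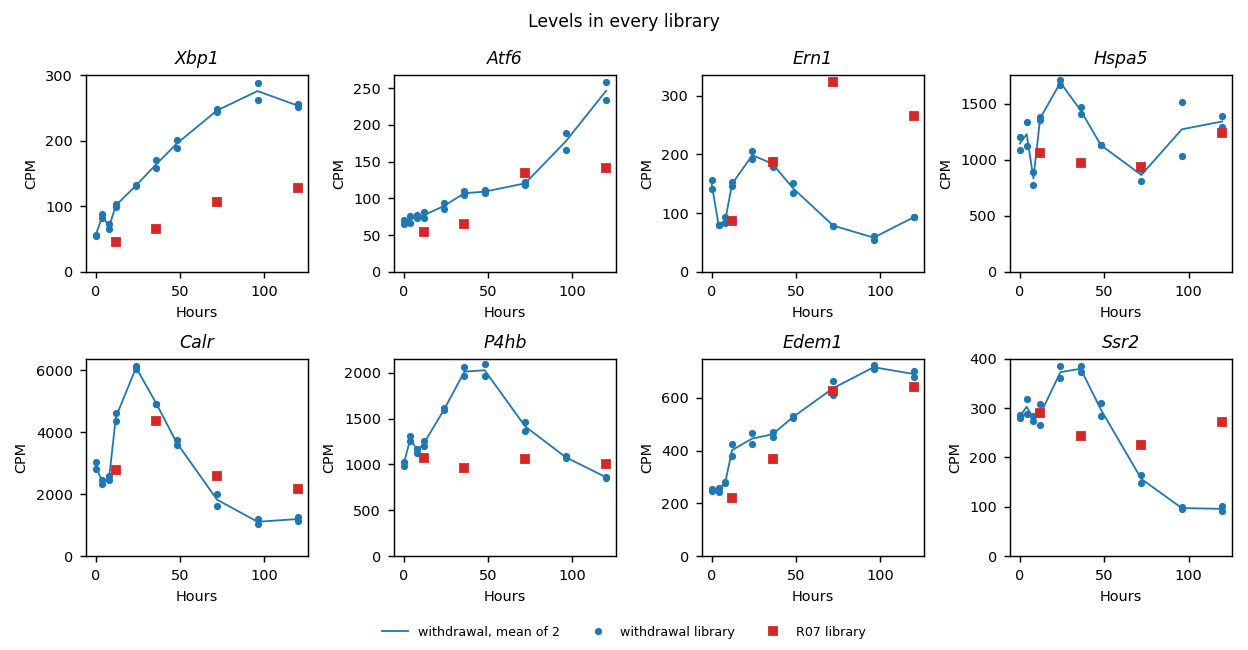
CPM (vertical axis, linear, from 0) against hours (horizontal axis) for 8 members; blue points are the 2 withdrawal libraries of each time, the line joins their means, and red squares are single R07 libraries. Xbp1 reaches 276 CPM at 96 h (mean of 2) in withdrawal but 128 CPM in the R07 library of 120 h, whereas Ern1 is higher in the R07 libraries of 72 and 120 h than in any withdrawal library.

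Hspa5 (chr2:34771970-34777547, plus strand), which encodes BiP, the main luminal chaperone and the protein that keeps the sensors inactive, gave a more modest course. Withdrawal libraries held Hspa5 at 1089 and 1205 CPM at 0 h, 1124 and 1337 at 4 h, 777 and 895 at 8 h, 1383 and 1361 at 12 h, 1716 and 1667 at 24 h, 1473 and 1412 at 36 h, 1131 and 1135 at 48 h, 812 and 919 at 72 h, 1516 and 1031 at 96 h and 1295 and 1393 at 120 h. It was lower at 8 h (-0.47 ± 0.14), higher at 24 h (0.56 ± 0.14, adjusted p = 0.00375) and lower at 72 h (-0.42 ± 0.14), and at 120 h the change of 0.21 ± 0.14 was not called (adjusted p = 0.162). The 2 libraries of 96 h differed by more than those of any other time. The 24 h call was lost without the 0 h library A (adjusted p = 0.0562).

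The other luminal chaperones parted ways. Dnajb9 (ERdj4), a co-chaperone that delivers substrates to BiP and restrains IRE1, had the highest 120 h change of its group. The Dnajb9 libraries read 17.8 and 23.1 CPM at 0 h, 23.9 and 31.2 at 4 h, 21.8 and 21.8 at 8 h, 33.4 and 29.7 at 12 h, 38.3 and 36.9 at 24 h, 40.6 and 35.4 at 36 h, 39.0 and 43.8 at 48 h, 43.1 and 49.2 at 72 h, 55.1 and 46.5 at 96 h and 46.0 and 48.6 at 120 h. It was called from 12 h on, with 0.87 ± 0.14 at 24 h and 1.18 ± 0.14 at 120 h (adjusted p = 1.50e-07). Manf, a small secreted protein of the stress response, had the lowest. Manf stood at 159 and 180 CPM at 0 h, 163 and 169 at 4 h, 115 and 124 at 8 h, 180 and 192 at 12 h, 251 and 261 at 24 h, 235 and 220 at 36 h, 167 and 188 at 48 h, 105 and 121 at 72 h, 107 and 82.6 at 96 h and 71.6 and 79.9 at 120 h. It rose at 24 h (0.59 ± 0.11) and fell below the 0 h level from 72 h on, to -1.18 ± 0.12 (adjusted p = 7.67e-09). The gene span of Manf overlaps protein-coding genes on both strands, so part of its reads may not be its own.

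Hyou1 (GRP170), the exchange factor of BiP, showed no call at 24 h and its lowest level at 72 h. Levels of Hyou1 were 422 and 364 CPM at 0 h, 422 and 379 at 4 h, 323 and 351 at 8 h, 418 and 421 at 12 h, 467 and 438 at 24 h, 389 and 432 at 36 h, 318 and 304 at 48 h, 155 and 169 at 72 h, 233 and 211 at 96 h and 215 and 225 at 120 h. The 72 h change was -1.29 ± 0.096, and at 120 h it was -0.86 ± 0.095. Sdf2l1, a partner of the BiP co-chaperones, rose at 24 h (0.68 ± 0.13) and was slightly below the 0 h libraries at 120 h (-0.39 ± 0.13, adjusted p = 0.0111). Withdrawal libraries held Sdf2l1 at 78.0 and 77.9 CPM at 0 h, 60.3 and 59.8 at 4 h, 56.7 and 58.9 at 8 h, 80.6 and 103 at 12 h, 121 and 130 at 24 h, 122 and 112 at 36 h, 103 and 89.3 at 48 h, 62.7 and 69.7 at 72 h, 75.4 and 54.3 at 96 h and 56.5 and 64.4 at 120 h. Of the remaining 4, Dnajb11 (ERdj3) and Dnajc3 (P58IPK), both co-chaperones of BiP, rose at 24 h by 0.52 ± 0.094 and 0.48 ± 0.097. At 120 h Dnajb11 was still higher (0.31 ± 0.094) and Dnajc3 was back at its starting level (-0.02 ± 0.097, not called), while Hsp90b1 (-0.62 ± 0.12) and Creld2 (-0.66 ± 0.12) were lower.

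The lectins calreticulin and calnexin hold glycoproteins until they have folded. Calr (chr8:84841850-84846934, minus strand), the most abundant member per kilobase, had the largest swing between its highest and lowest mean in CPM. The Calr libraries read 2792 and 3037 CPM at 0 h, 2313 and 2462 at 4 h, 2451 and 2583 at 8 h, 4349 and 4618 at 12 h, 6114 and 6039 at 24 h, 4918 and 4918 at 36 h, 3572 and 3749 at 48 h, 1625 and 2012 at 72 h, 1185 and 1024 at 96 h and 1132 and 1255 at 120 h. It rose by 24 h (log2 1.06 ± 0.11, adjusted p = 1.95e-07) and then fell to -1.31 ± 0.11 at 120 h (adjusted p = 6.81e-10). Canx, the membrane-bound lectin, did not pass at 24 h (0.20 ± 0.10, adjusted p = 0.175). Canx stood at 1074 and 1187 CPM at 0 h, 1049 and 1192 at 4 h, 909 and 957 at 8 h, 1093 and 983 at 12 h, 1336 and 1267 at 24 h, 1203 and 1152 at 36 h, 957 and 1094 at 48 h, 697 and 796 at 72 h, 719 and 645 at 96 h and 711 and 736 at 120 h. It was lower from 72 h on, with a log2 change of -0.66 ± 0.10 at 120 h.

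Among the isomerases P4hb, the classical protein disulphide isomerase, stayed high longest. Levels of P4hb were 1024 and 986 CPM at 0 h, 1315 and 1261 at 4 h, 1168 and 1129 at 8 h, 1204 and 1259 at 12 h, 1613 and 1592 at 24 h, 1966 and 2063 at 36 h, 2095 and 1964 at 48 h, 1364 and 1468 at 72 h, 1090 and 1070 at 96 h and 853 and 868 at 120 h. Its change was 1.01 ± 0.083 at 48 h (adjusted p = 2.48e-09) and -0.24 ± 0.082 at 120 h, a late call that was lost in 4 of 25 alternatives, among them without the 120 h library A (adjusted p = 0.0735) or the 0 h library A (0.0522). Pdia4 (ERp72) and Pdia6 (P5) rose at 24 h (0.38 ± 0.099 and 0.48 ± 0.10) and were below 0 h at 120 h (-0.86 ± 0.10 and -0.42 ± 0.10). Withdrawal libraries held Pdia4 at 173 and 186 CPM at 0 h, 163 and 178 at 4 h, 157 and 167 at 8 h, 210 and 208 at 12 h, 236 and 230 at 24 h, 229 and 213 at 36 h, 180 and 183 at 48 h, 111 and 126 at 72 h, 106 and 85.9 at 96 h and 96.3 and 105 at 120 h. Pdia3 (ERp57), the partner of the lectins, rose at 24 h (0.49 ± 0.12) and was back at 0.03 ± 0.12 by 120 h, not called. The Pdia3 libraries read 670 and 778 CPM at 0 h, 612 and 742 at 4 h, 575 and 631 at 8 h, 718 and 720 at 12 h, 1017 and 1019 at 24 h, 1014 and 912 at 36 h, 833 and 879 at 48 h, 662 and 748 at 72 h, 788 and 608 at 96 h and 734 and 763 at 120 h. Both 24 h libraries of Pdia3 lay above both 0 h libraries, and the 120 h libraries lay between the 0 h libraries.

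Of the 7 degradation genes, 6 were higher and 1 lower at 120 h. Edem1, a lectin that picks misfolded glycoproteins for disposal, had the highest change among them. Edem1 stood at 248 and 253 CPM at 0 h, 241 and 260 at 4 h, 281 and 278 at 8 h, 424 and 379 at 12 h, 467 and 425 at 24 h, 472 and 451 at 36 h, 523 and 530 at 48 h, 664 and 610 at 72 h, 724 and 709 at 96 h and 701 and 679 at 120 h. It was called from 12 h (0.67 ± 0.087) to 120 h (1.44 ± 0.088, adjusted p = 4.04e-12). Derl1, part of the exit channel, moved little before 96 h and then reached 0.86 ± 0.076. Levels of Derl1 were 144 and 144 CPM at 0 h, 160 and 159 at 4 h, 141 and 136 at 8 h, 147 and 144 at 12 h, 167 and 170 at 24 h, 168 and 175 at 36 h, 173 and 171 at 48 h, 181 and 175 at 72 h, 217 and 201 at 96 h and 267 and 262 at 120 h. The ubiquitin ligase Syvn1 (HRD1) and its partner Sel1l were up by 0.86 ± 0.11 and 0.66 ± 0.090 at 120 h, the ligase scaffold Herpud1 by 0.87 ± 0.10 after a higher level at 96 h (1.55 ± 0.10), and Derl2 by 0.39 ± 0.11.

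Derl3 stood at the floor of detection. Withdrawal libraries held Derl3 at 0.228 and 0.327 CPM at 0 h, 0.387 and 0.642 at 4 h, 0.916 and 0.651 at 8 h, 0.438 and 0.505 at 12 h, 0.690 and 0.477 at 24 h, 0.656 and 0.951 at 36 h, 0.952 and 0.548 at 48 h, 0.268 and 0.408 at 72 h, 0.184 and 0.119 at 96 h and 0 and 0.0345 at 120 h. It had 25 reads over both 0 h libraries, 73 over both 48 h libraries and 1 over both 120 h libraries. The depth-scaled ratio of 120 h to 0 h was 0.0544 (95% exact interval 0.00132 to 0.332), and that of 120 h to 48 h was 0.0207 (0.000517 to 0.119); both intervals cover counting error only. Derl3 was thus lower at 120 h, opposite to Derl1 and Derl2, at levels too low for a fold change.

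The translocon and TRAP subunits moved together at 24 h, all 7 higher, and all 7 fell between 48 and 120 h. Ssr2, a TRAP subunit, ended lowest. The Ssr2 libraries read 281 and 287 CPM at 0 h, 317 and 288 at 4 h, 274 and 284 at 8 h, 266 and 308 at 12 h, 361 and 385 at 24 h, 374 and 385 at 36 h, 310 and 284 at 48 h, 148 and 165 at 72 h, 94.5 and 99.97 at 96 h and 90.4 and 101 at 120 h. The change was 0.39 ± 0.093 at 24 h and -1.59 ± 0.096 at 120 h (adjusted p = 3.38e-12), and Ssr1 behaved likewise (-1.48 ± 0.094). Sec61g, the smallest channel subunit, rose at 36 h (0.90 ± 0.17). Sec61g stood at 29.3 and 40.5 CPM at 0 h, 39.0 and 37.8 at 4 h, 32.2 and 32.8 at 8 h, 32.8 and 41.0 at 12 h, 53.1 and 58.1 at 24 h, 74.3 and 56.7 at 36 h, 56.9 and 54.1 at 48 h, 40.3 and 55.5 at 72 h, 31.9 and 27.2 at 96 h and 23.9 and 30.4 at 120 h. Its late change of -0.39 ± 0.17 was lost in 5 of 25 alternatives, among them other size factors (adjusted p = 0.100), leaving out the 120 h library A (0.397) and leaving out the 0 h library B (0.535). Sec61a1, the channel-forming subunit, was not called at 120 h (-0.10 ± 0.088, adjusted p = 0.288). Levels of Sec61a1 were 393 and 351 CPM at 0 h, 494 and 426 at 4 h, 399 and 402 at 8 h, 417 and 420 at 12 h, 506 and 492 at 24 h, 488 and 540 at 36 h, 473 and 442 at 48 h, 304 and 312 at 72 h, 312 and 304 at 96 h and 350 and 353 at 120 h. Ssr3, Ssr4 and Sec61b were lower at 120 h, with log2 changes of -0.67 ± 0.11, -0.37 ± 0.13 and -0.78 ± 0.14; the call of Ssr4 was lost without the 120 h library A (adjusted p = 0.270) or the 0 h library B (0.0987).

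Members with an ERSE or ERSE-II match did not all move the same way. Of the 11 with a match, 6 rose at 24 h, against 15 of the 15 with a window and no match and 5 of the 6 without a window; the background of higher genes was 13.5%. At 120 h the counts were 3 higher and 6 lower with a match, 5 and 9 with a window and no match, and 2 and 3 without a window, where 39.6% of all genes were higher and 40.3% lower. These counts describe the lists, and no test was made on them.

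Transcripts of granule and secreted proteins changed over the same hours. The 9 genes listed as granule and secreted cargo of immature granulocytes include Mpo, the peroxidase of primary granules. They summed to 6380 ± 28.7 CPM at 0 h, 14887 ± 631 at 24 h, 16852 ± 313 at 36 h and 853 ± 21.5 at 120 h (SD, n = 2). Of the 9, 7 were higher and 0 lower at 24 h (13.5% and 14.4% of all genes). At 120 h, 3 were higher and 3 lower (39.6% and 40.3% of all genes), so the late sum hides a split. The 7 late granule genes, among them Ltf and Camp, summed to 25.8 ± 1.04 CPM at 0 h, 53.3 ± 1.22 at 24 h, 38929 ± 3611 at 96 h and 24093 ± 3786 at 120 h. At 48 h the early cargo still stood at 16317 ± 1940 CPM, when the member sum was 15587 CPM. No relation between these sums was tested.

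**Figure D4:**
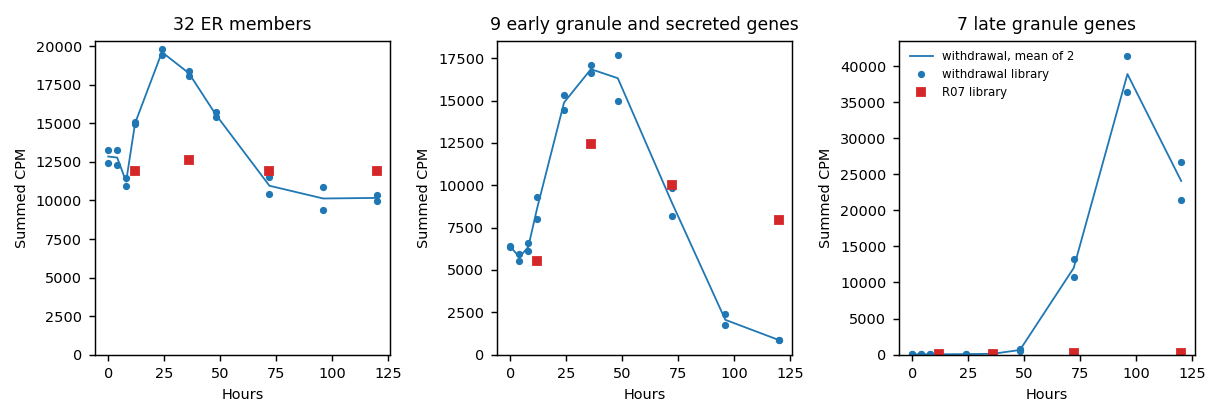
Summed CPM (vertical axes, linear, from 0) against hours (horizontal axes) of the 32 members, of 9 early cargo genes and of 7 late granule genes; blue points are withdrawal libraries with a line through the means of 2, red squares single R07 libraries. The member sum peaks at 24 h at 19631 CPM, the early cargo at 36 h at 16852 CPM and the late granule genes at 96 h at 38929 CPM, and the R07 libraries hold at most 193 CPM of late granule genes.

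Markers of other cell types moved in the same hours. Of all genes, 13.5% were higher and 14.4% lower at 24 h, and 39.6% and 40.3% at 120 h. Of 8 eosinophil markers, 6 of the 7 tested were higher at 24 h and 7 at 120 h, and their sum ran from 34.0 and 35.3 CPM at 0 h to 2054 and 2517 at 48 h and 175 and 197 at 120 h; Prg2 and Prg3 are in this list and in the early cargo list. Of 8 mast cell and basophil markers, 4 of 5 tested were higher at 24 h, and 2 were higher and 3 lower at 120 h. Their sum was 244 and 286 CPM at 0 h, 899 and 907 at 24 h and 42.2 and 48.9 at 120 h. Of 10 plasma and B cell markers, 2 of 9 tested were higher and 6 lower at 24 h, and 4 were higher and 3 lower at 120 h. Their sum was 460 and 522 CPM at 0 h, 108 and 112 at 24 h and 320 and 330 at 120 h. Macrophage and dendritic cell markers summed to 9.19 and 10.4 CPM at 0 h and to 2174 and 2225 at 120 h, with 6 of 6 tested higher. The part of these cell types in the member changes was not tested.

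A wider list of 120 other genes of the same pathway, 115 of which had enough reads, was counted beside the members. At 24 h, 53 rose and 1 fell (13.5% of all genes higher, 14.4% lower), with a median of 0.23 on the log2 scale; without the 0 h library A the call count of 54 became 27, and without the 24 h library B it became 34. At 48 h, 54 were higher and 13 lower (25.8% of all genes higher, 26.8% lower). At 120 h, 42 were higher and 49 lower (39.6% and 40.3% of all genes), near the background.

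By group at 24 h, 13 of 22 other chaperones and oxidoreductases rose, 9 of 16 translocation genes, 7 of 19 N-glycosylation genes, 6 of 19 further degradation genes, 12 of 21 ER to Golgi transport genes and 6 of 18 further regulators, where 13.5% of all genes rose. The genes named are the ends of each group. Ero1lb, the oxidase that recharges disulphide isomerases, rose most, by 1.91 ± 0.10 on the log2 scale, from 18.1 and 19.7 CPM to 74.2 and 68.9 CPM. Dnajc10, a reductase of the ER, was the 1 gene lower (-0.47 ± 0.10). The others were higher at either end of their groups: Vimp, a degradation adaptor also called selenoprotein S (0.72 ± 0.11), and Herpud2 (0.29 ± 0.097), Tmbim6 (0.69 ± 0.088) and Bfar (0.27 ± 0.087), the signal peptidase subunit Spcs3 (0.69 ± 0.11) and Srp14 of the signal recognition particle (0.31 ± 0.098), the oligosaccharyltransferase subunits Ostc (0.55 ± 0.11) and Rpn2 (0.30 ± 0.079), and the transport genes Bet1 (0.68 ± 0.12) and Sec23b (0.23 ± 0.084).

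At 120 h, when 39.6% of all genes were higher and 40.3% lower, counts differed between the groups. N-glycosylation genes gave 15 of 19 lower and none higher, from Dpagt1 (-0.24 ± 0.080), which starts the sugar precursor, to Mogs (-1.73 ± 0.12), which trims it. Translocation genes gave 9 lower and 3 higher, from Srp72 (-1.69 ± 0.092) to Tram1 (0.54 ± 0.11). Further degradation genes gave 12 higher and 4 lower, from Aup1 (1.53 ± 0.12) to Edem3 (-1.09 ± 0.11), and transport genes 9 higher and 4 lower, from the cargo receptors Surf4 (1.25 ± 0.090) to Lman1 (-1.18 ± 0.092). Chaperones and oxidoreductases gave 9 higher and 10 lower, from Serp1 (1.77 ± 0.12), a translocon-associated stress protein, to Fkbp11 (-4.44 ± 0.28), a prolyl isomerase of secretory cells. Regulators gave 9 higher and 7 lower.

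The ends of the regulator group were far apart. Creb3, a membrane-bound transcription factor related in build to Atf6, went from 4.90 and 4.62 CPM in the 0 h libraries to 50.3 and 53.3 CPM in those of 120 h (log2 3.42 ± 0.14). Bhlha15 (MIST1), a transcription factor of secretory cells, had 54.5 and 45.3 CPM in the 0 h libraries, 41.7 and 40.0 in those of 48 h, and 0.636 and 0.690 in those of 120 h (-6.25 ± 0.20). Both 120 h libraries lay outside the range of the 0 h libraries for both genes.

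R07 was compared with withdrawal at the 4 matched times, with time in the model. 5 of 32 members were lower in R07 and none higher, where 10.5% of the 13641 genes tested were higher and 6.09% lower (16.6% in all). The share of members called, 15.6%, is near that background. The spread in this fit includes any change of the difference with time, since each R07 time has 1 library.

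Xbp1 had the lowest R07 difference of all members (log2 -1.16 ± 0.095, adjusted p = 0.000478). Xbp1 read 45.8, 66.3, 107 and 128 CPM in the R07 libraries of 12, 36, 72 and 120 h, against withdrawal means of 102, 165, 246 and 254 CPM. It was below both withdrawal libraries at each of the 4 times, and the call was kept in every alternative run, with 1 library left out, without a low-count filter, with other size factors and with DESeq2. In the R07 libraries progenitor markers summed to 5236 to 5684 CPM, plasma and B cell markers to 726 to 1367 CPM and late granule genes to 35.5 to 193 CPM. Sdc1, a surface proteoglycan, made up most of the plasma and B cell sum in R07 (525 to 1221 CPM) and 66.5 and 68.8 CPM of it at 120 h of withdrawal. Withdrawal libraries of 120 h held 406 and 446, 320 and 330 and 21416 and 26770 CPM of the same lists, and the part of these cell states in the R07 differences was not tested.

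Of the luminal chaperones Sdf2l1 (-0.81 ± 0.15, adjusted p = 0.00819), Dnajb11 (-0.55 ± 0.12, adjusted p = 0.0136), Creld2 (-0.44 ± 0.11, adjusted p = 0.0307) and Dnajc3 (-0.42 ± 0.12, adjusted p = 0.0417) were lower. Sdf2l1 read 68.4, 50.2, 33.3 and 38.4 CPM in the R07 libraries of 12, 36, 72 and 120 h, against withdrawal means of 91.6, 117, 66.2 and 60.4 CPM. Dnajb11 read 114, 104, 93.0 and 81.9 CPM in the R07 libraries of 12, 36, 72 and 120 h, against withdrawal means of 140, 161, 127 and 152 CPM. All 4 of these members were below both withdrawal libraries at every matched time, as were Xbp1 and, without a call, Sel1l. The share of all genes for which this held at every time was not counted. The calls of Creld2 and Dnajc3 were lost in 10 and 12 of 16 alternatives, and the count fell to 3 without any 1 of the withdrawal libraries of 36, 72 or 120 h, without the 12 h library B or without the R07 library of 36 h. Over all genes the main fit called 2262 of 13641. Those runs called from 1130 of 13461 genes, without the 72 h library B, to 2301 of 13864, without the R07 library of 36 h.

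At single times the members lay on different sides of withdrawal, and so did many other genes. The R07 library was below both withdrawal libraries for 23 members and above for 4 at 12 h, below for 30 and above for 0 at 36 h, below for 12 and above for 18 at 72 h, and below for 13 and above for 18 at 120 h. The median log2 ratio over the members was -0.27, -0.65, 0.11 and 0.18 at those times. Of all 13641 genes tested, 39.5% were below and 41.7% above both withdrawal libraries at 12 h, 46.0% and 45.0% at 36 h, 45.0% and 45.6% at 72 h, and 43.9% and 51.1% at 120 h, with medians of 0.01, -0.01, 0.00 and 0.12. Each hour rests on 1 R07 library. The R07 libraries themselves summed to 11913 to 12611 CPM of member transcripts, a range narrower than that of the withdrawal arm.

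**Figure D5:**
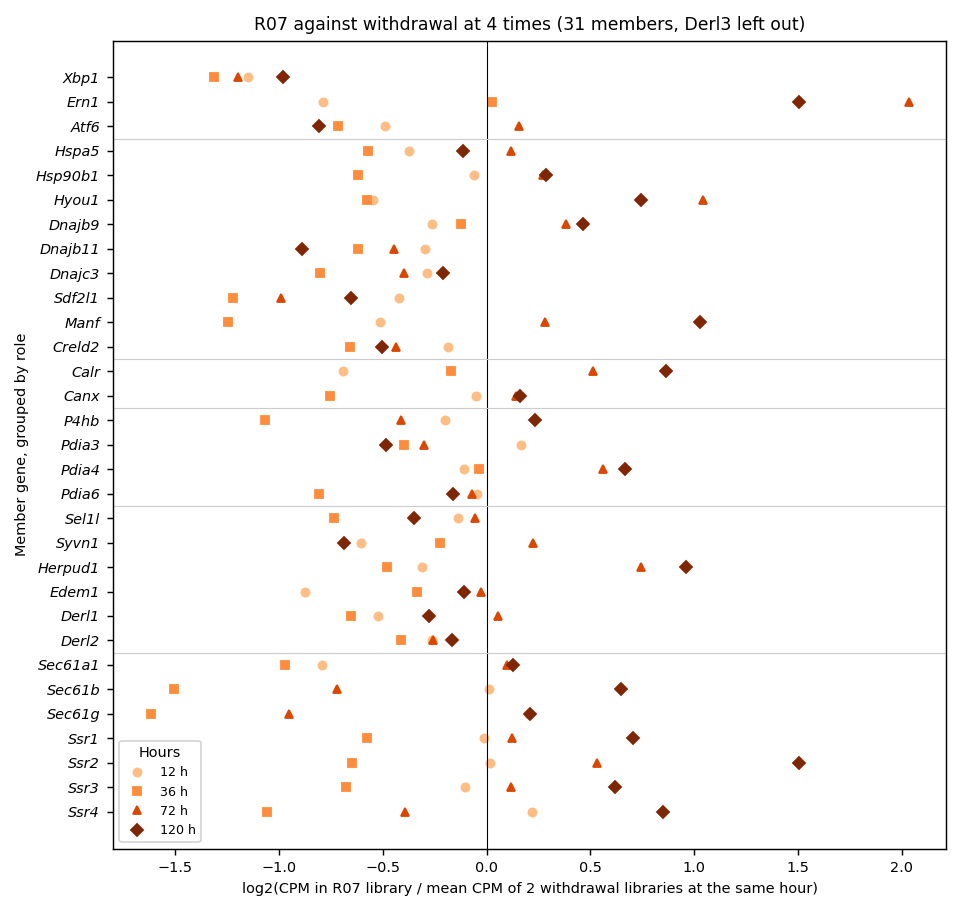
Log2 ratio of the CPM in 1 R07 library to the mean CPM of the 2 withdrawal libraries of the same hour (horizontal axis) for 31 members (vertical axis), with a symbol for each of the 4 hours; Derl3 is left out for its few reads. Xbp1 lies between -1.31 and -0.98 at all 4 hours, whereas Ern1 runs from -0.79 at 12 h to 2.03 at 72 h.

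A linear change of the difference with hours was called for 12 of 32 members (37.5%), against 50.4% of all genes (26.5% upward, 23.9% downward). In all 12, R07 rose relative to withdrawal. The R07 level itself rose for some of them, such as Ern1, and fell for others, such as Ssr1. Ssr1 read 670, 516, 461 and 398 CPM in the R07 libraries of 12, 36, 72 and 120 h. In withdrawal it read 698 and 654 CPM at 12 h and 236 and 251 CPM at 120 h. Ern1 had the steepest slope outside Derl3, 0.56 ± 0.14 per 24 h (adjusted p = 0.0104). Ern1 read 86.9, 187, 323 and 265 CPM in the R07 libraries of 12, 36, 72 and 120 h, against withdrawal means of 150, 184, 78.8 and 93.5 CPM. The R07 library was below both withdrawal libraries at 12 h and above both at 72 and 120 h. The call of Ern1 was lost without the R07 library of 12 h (adjusted p = 0.0807).

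Ssr2 and Calr were above both withdrawal libraries in R07 at 72 and 120 h. Ssr2 read 290, 242, 226 and 271 CPM in the R07 libraries of 12, 36, 72 and 120 h, against withdrawal means of 287, 380, 156 and 95.6 CPM. Calr read 2778, 4358, 2590 and 2173 CPM in the R07 libraries of 12, 36, 72 and 120 h, against withdrawal means of 4483, 4918, 1819 and 1194 CPM. Their slopes were 0.39 ± 0.087 and 0.34 ± 0.066 per 24 h (adjusted p = 0.00531 and 0.00287); that of Ssr2 was lost without the R07 library of 120 h (0.247), that of Calr in no alternative run. Hyou1, Manf and Pdia4 also had positive slopes, of 0.35 ± 0.098, 0.42 ± 0.093 and 0.19 ± 0.050. Hyou1 read 287, 275, 333 and 368 CPM in the R07 libraries of 12, 36, 72 and 120 h, against withdrawal means of 419, 411, 162 and 220 CPM. Manf read 130, 95.9, 137 and 155 CPM in the R07 libraries of 12, 36, 72 and 120 h, against withdrawal means of 186, 228, 113 and 75.8 CPM. Pdia4 read 194, 215, 174 and 160 CPM in the R07 libraries of 12, 36, 72 and 120 h, against withdrawal means of 209, 221, 118 and 100 CPM. Each was below or level with withdrawal at 12 and 36 h and above it at 72 and 120 h.

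Further members were not called in R07 against withdrawal. Canx, P4hb, Derl1 and Sec61g had the lowest difference of their roles, and Atf6 and Hspa5 are shown as a sensor and as BiP. Canx read 1003, 698, 824 and 809 CPM in the R07 libraries of 12, 36, 72 and 120 h, against withdrawal means of 1038, 1178, 746 and 723 CPM. P4hb read 1071, 962, 1063 and 1010 CPM in the R07 libraries of 12, 36, 72 and 120 h, against withdrawal means of 1231, 2014, 1416 and 860 CPM. Derl1 read 101, 109, 184 and 218 CPM in the R07 libraries of 12, 36, 72 and 120 h, against withdrawal means of 146, 172, 178 and 265 CPM. None of the 3 kept to one side of the withdrawal libraries at all 4 times. Sec61g read 42.4, 21.3, 24.8 and 31.3 CPM in the R07 libraries of 12, 36, 72 and 120 h, against withdrawal means of 36.9, 65.5, 47.9 and 27.1 CPM. Atf6 read 54.9, 65.4, 135 and 141 CPM in the R07 libraries of 12, 36, 72 and 120 h, against withdrawal means of 77.2, 107, 121 and 246 CPM. Hspa5 read 1058, 971, 940 and 1240 CPM in the R07 libraries of 12, 36, 72 and 120 h, against withdrawal means of 1372, 1442, 866 and 1344 CPM. Atf6 had a negative difference that missed the threshold (-0.45 ± 0.16, adjusted p = 0.0827), and that of Hspa5 was not called (-0.23 ± 0.14, adjusted p = 0.281). Derl3 read 0.695, 0.480, 0.792 and 1.56 CPM in the R07 libraries of 12, 36, 72 and 120 h, against withdrawal means of 0.471, 0.803, 0.338 and 0.0172 CPM. At these few reads Derl3 gives no fold.

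Against the 2 libraries of 0 h, taking R07 as 1 arm, edgeR called none of the 32 members and none of 13704 genes (0%); at an unadjusted p under 0.05 there were 5 members and 2868 genes (20.9%), and DESeq2 called 1 member and 1313 genes. This count rested on the R07 library of 12 h: without it 6 of 32 members and 2256 of 13595 genes were called, shares that lie close together. The members were Dnajb9 (log2 1.34) and Edem1 (1.08), higher, and Canx (-0.58), Pdia6 (-0.59), Sdf2l1 (-0.98) and Creld2 (-1.02), lower.

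In the wider list, 3 genes were higher and 9 lower in R07 than in withdrawal (10.5% of all genes higher, 6.09% lower). Fkbp7, a prolyl isomerase (1.37 ± 0.39), and Erlec1, a lectin of degradation (0.42 ± 0.10), were the highest of their groups. The lowest were the COPII coat subunit Sec24d (-0.95 ± 0.27), Serp1 (-0.84 ± 0.18), Tmbim6 (-0.79 ± 0.14), Aup1 (-0.65 ± 0.13), Surf4 (-0.65 ± 0.12), Ppp1r15b (-0.58 ± 0.14) and Dolpp1 (-0.46 ± 0.11). This count moved with single libraries, and so did that of all genes, 2262 of 13641 in the main fit. The wider count was 25 without the R07 library of 12 h (3790 of 13881 genes) and 4 without that of 72 h (969 of 13841). Without either 72 h withdrawal library it was 5 (1131 of 13450 and 1130 of 13461 genes). It was 6 without the 36 h library B (1413 of 13580) or the 120 h library B (1277 of 13458). Without the 120 h library A it was 7 (1404 of 13463).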

How the data were processed

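Polyadenylated RNA of 24 samples was sequenced as strand-marked paired reads, per the labels' protocols. The submitters' processing notes name STAR 2.4.2a, Picard and the build mm10. The authors deposited whole-number read counts per gene, with no normalization; the counting program, its strand setting and the annotation release are not given in the sources used here. The 4 lines that name no gene held 14.3 to 17.3% of reads and were left out of library sizes. Columns were matched to groups by arm and hour; their letters are not in the sample titles.

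Counts were tested with edgeR 4.0.16 (R 4.3.3) by its quasi-likelihood test with TMM size factors, filterByExpr with p-values adjusted by the Benjamini-Hochberg method across the tested genes, at a threshold of 0.05. Time was a factor over the 20 withdrawal libraries. R07 was set against withdrawal over 12 libraries with time and arm, then with arm by hours, and against 0 h over 6. The script was tested on simulated data. CPM used TMM-scaled totals of all 24 libraries; exon lengths came from GENCODE M21 and promoters from RefSeq. Alternatives were other size factors, no filter, DESeq2 1.42.0, fewer libraries, a replicate block and log2 hours. Each member with an end position in its role is shown in every library, with Xbp1, Ern1, Atf6 and Hspa5; other pathway genes are named where they end their group among the calls. The members and lists were chosen with earlier results of these data known.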

Additional observations from a re-analysis of the deposited data

Results flagged for a closer look

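For 12 members the difference between R07 and withdrawal changed with hours, by the linear term of edgeR's fit over the 4 matched times. R07 always rose relative to withdrawal, which does not mean that the R07 level itself rose. By the same term 50.4% of all genes were called, 26.5% upward and 23.9% downward. Among the sensors, Ern1 changed by 0.56 ± 0.14 per 24 h on the log2 scale (adjusted p = 0.0104). Of the luminal chaperones, Manf changed by 0.42 ± 0.093, Hyou1 by 0.35 ± 0.098 and Dnajb9 by 0.17 ± 0.053. Calr changed by 0.34 ± 0.066 and Pdia4 by 0.19 ± 0.050. Of the degradation genes, Herpud1 changed by 0.33 ± 0.067, and Derl3, at very few reads, by 1.07 ± 0.29. Of the channel and TRAP subunits, Ssr2 changed by 0.39 ± 0.087, Sec61a1 by 0.25 ± 0.066, Ssr3 by 0.21 ± 0.072 and Ssr1 by 0.21 ± 0.069. The calls of Calr, Pdia4, Herpud1, Hyou1 and Sec61a1 were kept in all 16 alternatives. Ssr3 lost its call in 9, Ssr1 in 8, Derl3 and Dnajb9 in 3 each, Manf and Ssr2 in 2 each and Ern1 in 1. Each R07 time has 1 library, so a difference at one hour has no replicate check.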

How the results depend on the processing

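Of 9343 member values under the alternatives, 9035 kept direction and side of the threshold, 200 lost their call, 107 gained one and 1 reversed: the slope of Syvn1 became 0.33 without the R07 library of 120 h (from -0.15 to 0.33 with 1 library left out). Using only the libraries of the times compared gave 3 calls at 4 h and 13 at 8 h; DESeq2 gave 11 at 8 h. With R07 against withdrawal, omitting the filter gave 3 members and 6 wider genes (2052 of all 22920 genes), and DESeq2 gave 9 and 24 (3964 of 13641). With R07 against 0 h, DESeq2 gave 1 member and 2 wider genes (1313 of all 13704 genes). The 36, 72 and 120 h libraries alone gave 6 and 5 (2256 of 13595). Leaving out 1 library gave 3 to 7 members at 4 h, 2 to 9 at 8 h, 16 to 26 at 24 h, 3 to 7 for R07 against withdrawal and 0 to 6 for R07 against 0 h. Wider genes ran from 27 to 57 at 24 h, from 4 to 25 for R07 against withdrawal and from 0 to 5 for R07 against 0 h. Over all genes, R07 against withdrawal ran from 969 to 3790 calls with 1 library left out. The cause was not tested. Other size factors moved the median of all genes by at most 0.0877. Both kinds take most genes as unchanged, while 79.9% were called at 120 h, so their closeness cannot settle the late scaling. The member sum was 12445 CPM and 1.33% of raw gene counts in 0 h library A. In 120 h library A it was 9957 CPM and 0.746%. Changes from 0 to 120 h would thus be lower on raw shares, and calls on that scale were not made. A replicate block on the column letter gave 6 calls at 4 h and 26 at 24 h. Differences between the letters correlated between times at -0.139 to 0.178, so little deviation was shared by letter. Whether the letters mark separate culture series cannot be told from this. For R07 no block on the letter could be fitted, since it has 1 library a time. Depth limits Derl3 only.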

Other observations

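The PERK branch, whose kinase slows translation and lets Atf4 be made, is outside the 32 genes, and the following were named after their values were seen. Eif2ak3, which encodes PERK, was at 30.4 and 30.6 CPM at 0 h and at 117 and 91.5 CPM at 120 h of withdrawal (log2 1.75 ± 0.11). In the R07 libraries of 12, 36, 72 and 120 h, Atf4 stood at 89.8, 106, 429 and 655 CPM, against 339 and 347 CPM at 0 h. Trib3, a target of that branch, stood at 4.23, 2.00, 101 and 226 CPM in R07, against 37.8 and 34.2 CPM at 0 h. Chac1, a glutathione-degrading target, stood at 0.132, 0.209, 9.96 and 16.9 CPM, and Ppp1r15a (GADD34), which reverses the translation block, at 6.07, 15.0, 41.6 and 86.1 CPM. For these 4 genes the R07 libraries of 72 and 120 h lay above both 0 h libraries, while those of 12 and 36 h lay below them for Atf4 and Trib3. Others of the 19 listed regulators, Ddit3 among them, are not shown here. The share of all genes that did the same was not counted, and each hour rests on 1 R07 library. With R07 as 1 arm, edgeR called none of 13704 genes against 0 h. In R07 against withdrawal, where edgeR tested the average over hours, none of the 4 was called (Atf4 adjusted p = 0.938, Trib3 0.309). Ppp1r15b, a relative of Ppp1r15a, was lower there (-0.58 ± 0.14).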
